A study of Rattus norvegicus with 10 samples.

Results

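Chromatin modifiers and remodellers are the genes whose products write, erase or read marks on histones and DNA, or slide and evict nucleosomes. They were taken here by name: every gene whose symbol begins with Kmt, Kdm, Setd, Chd, Hdac, Brd, Tet or Arid followed by a digit, or with Smarc or Dnmt, and whose expected count was 10 or more in at least 5 of the 10 libraries. Of 17168 genes in the count table, 66 symbols matched and 63 of them passed the count rule. Arid3c, Dnmt3l and Hdac1l did not. No Tet symbol was in the count table, and Kmt2e was the only Kmt symbol. Chd3, Chd4, Chd7, Hdac6, Hdac7, Arid1b, Arid2, Smarcc2, Kdm5c and Kdm6a were also absent under those symbols. The counts below do not cover these genes. All 63 were among the 11682 genes tested. By role they comprised 10 methylation writers, 13 demethylating erasers, 9 deacetylases, 18 remodellers, and 13 readers and ARID proteins. Roles were assigned from the symbol, so a role does not mean that each member has that enzyme activity.

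The libraries came from left hippocampi of female TgF344-AD rats, which carry mutant human amyloid precursor protein and presenilin transgenes a line made to model Alzheimer's disease. In the treated group, 5 rats received ibudilast, an inhibitor of phosphodiesterases, in their chow for 6 months from 5 months of age; the 5 untreated rats ate plain rodent chow. All 10 animals had the Tg-AD genotype and were dissected at 11 months, and no wild-type animals were analysed here, so the comparison is between drug and no drug on the transgenic background. Each library bears the tag of a separate animal, and totals ranged from 6960066 to 10121571 expected counts.

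Histone methyltransferases of the Kmt and Setd families and DNA methyltransferases add methyl groups, and Kdm enzymes remove them from histone lysines. Hdac enzymes take acetyl groups off histones and other proteins, whereas bromodomain proteins of the Brd family bind acetylated lysines. Many Chd and Smarc proteins belong to ATP-driven complexes that move nucleosomes. Several of these genes are known for roles in memory and in neurodevelopmental disorders.

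Markers of other cells and regions also differed between the groups. Summed over the list, hippocampal principal cell markers lay between 1321 and 2299 CPM (counts per 1e6, scaled by TMM) in untreated libraries and between 964 and 1532 CPM in treated ones, with 0 of 13 tested markers higher and 5 lower. Neocortical neuron markers, several of which hippocampal neurons also express, spanned 613 to 855 and 942 to 1247 CPM, with 5 of 14 higher and 1 lower. The 942 CPM belonged to ibudilast replicate 3, where Calb1 alone gave 476 CPM, against 59.5 to 178 CPM in the other libraries. The neocortical score, used as a covariate below, was lowest in that library, at -0.78. It was -0.48 to -0.12 in untreated libraries and 0.35 to 0.72 in the other treated ones. Microglial markers spanned 827 to 1443 and 376 to 719 CPM, with 11 of 12 lower, and astrocyte markers 3426 to 5240 and 2012 to 3213 CPM, with 4 of 8 lower. General neuronal markers overlapped, at 6638 to 9499 and 7120 to 9671 CPM. So did oligodendrocyte markers, at 6092 to 18498 and 5604 to 11627 CPM, with 0 of 8 higher and 0 lower. Their highest sums were in untreated replicate 1 (18498 CPM) and, among treated libraries, ibudilast replicate 2 (11627 CPM). Cerebellar markers reached 4385 CPM in ibudilast replicate 3 and lay between 50.8 and 152 CPM in the other 9 libraries. Meningeal markers reached 921 and 1078 CPM in ibudilast replicates 3 and 5, and choroid plexus markers 2579 CPM in untreated replicate 1. No marker was at 0 in every library. In such bulk tissue, fewer cells of a type and less RNA per cell cannot be told apart, and the part of these markers in the results below was not tested beyond the fits given.

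Most of the chromatin genes that differed were higher with ibudilast. By edgeR's quasi-likelihood test at an adjusted p under 0.05, 27 of the 63 rose and 2 fell, while 34 did not pass. Over all tested genes, 20.0% passed as higher and 18.5% as lower. The median log2 fold change of the 63 was 0.27, with 45 positive, beside 0.01 for all tested genes, of which 50.5% were positive. In 18 members all 5 ibudilast values lay above all 5 untreated values and in 2 they lay below, against 12.5% and 11.7% of tested genes. Changes were mostly modest: 5 members passed with at least a 2-fold difference, namely Arid3a, Hdac4, Dnmt3a, Chd5 and Arid5b, all higher.

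**Figure D1:**
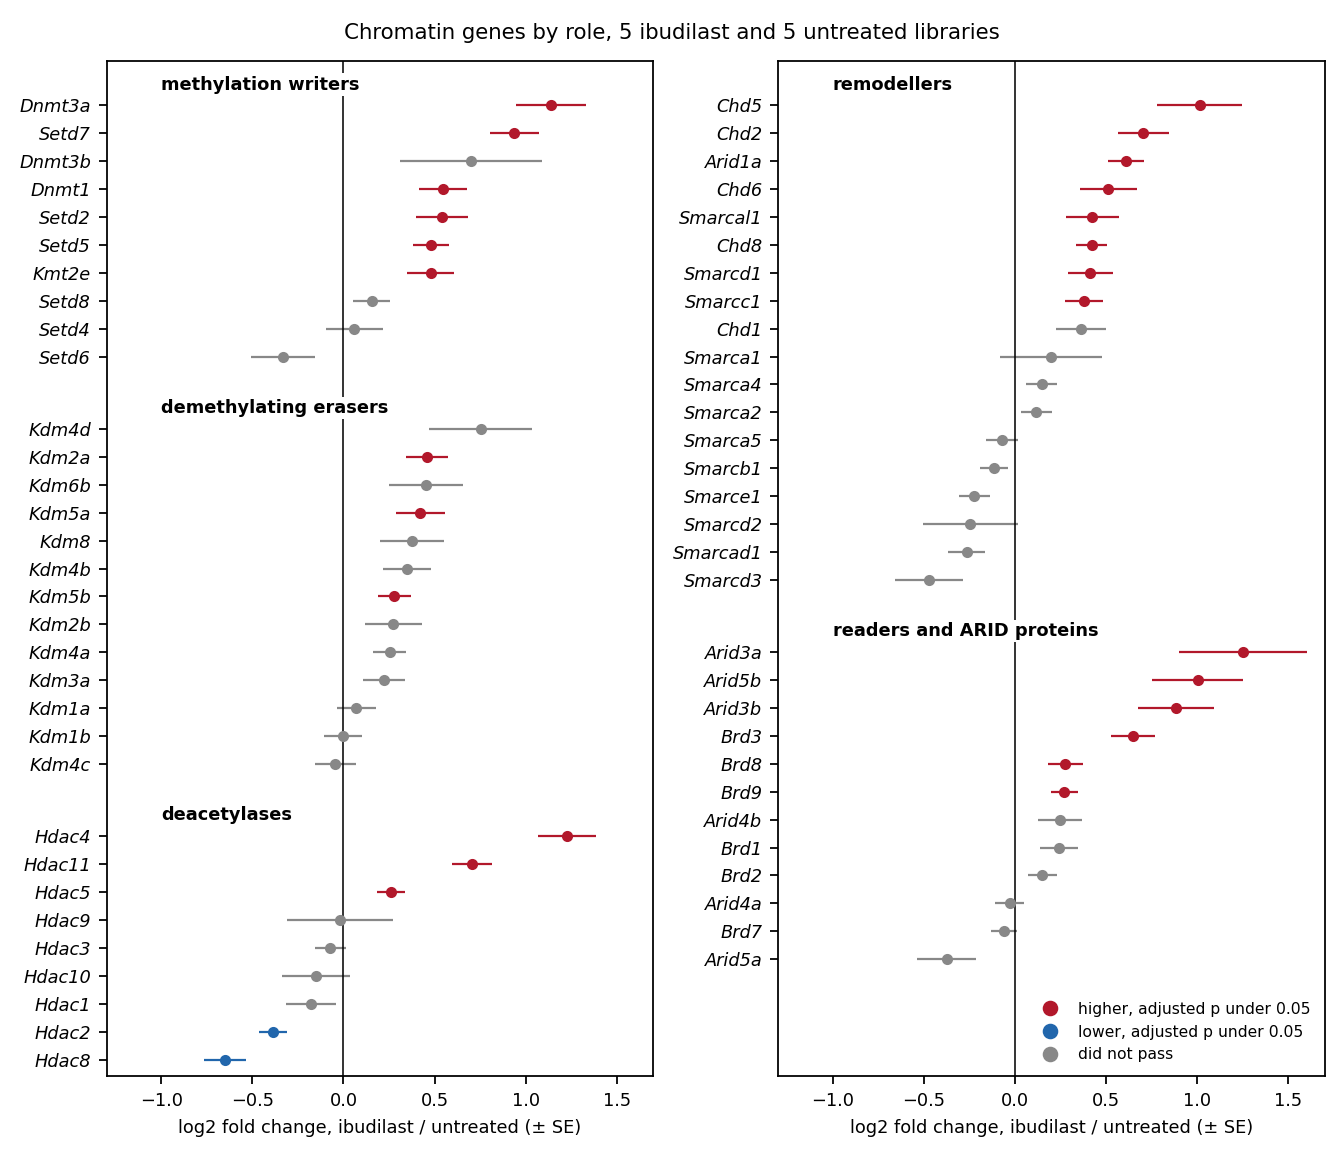
Log2 fold change of ibudilast against untreated for 62 of the 63 chromatin genes, grouped by role, with bars of 1 standard error. Red and blue mark genes past an adjusted p of 0.05; 26 of those drawn lie to the right of zero and 2, Hdac2 and Hdac8, to the left.

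Among the writers, 6 of 10 rose (60%, against 20.0% of all tested genes) and none fell (against 18.5%). The median of their log2 fold changes was 0.51. Dnmt3a, which places methyl groups on unmethylated DNA, measured 17.8, 21.8, 18.2, 20.4 and 19.4 CPM in the untreated libraries and 30.5, 39.8, 67.1, 42.2 and 35.3 CPM in the ibudilast libraries. The untreated values lay close together, and the lowest treated value was above all of them. The means were 19.5 ± 1.63 and 43.0 ± 14.2 CPM (SD, n = 5), and the log2 fold change was 1.14 ± 0.19 (SE; adjusted p = 0.00171); without ibudilast replicate 3, the highest library, it was 0.93. Dnmt1, which copies methylation onto new strands at replication, measured 34.3, 47.6, 45.5, 45.1 and 51.9 CPM untreated and 52.8, 61.6, 80.1, 67.1 and 66.0 CPM treated. The groups did not overlap, although the highest untreated and lowest treated values nearly met, and the difference was 0.55 ± 0.13 (adjusted p = 0.00842). Dnmt3b, the other de novo enzyme, was at low levels: untreated libraries spanned 0.957 to 1.48 CPM, and treated ones 0.938 to 1.71 CPM apart from 4.39 CPM in ibudilast replicate 3 (0.70 ± 0.39, adjusted p = 0.173).

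Setd7, a lysine methyltransferase of histone H3 and other proteins, showed the largest rise among the histone-type writers. It measured 29.6, 22.4, 30.3, 28.6 and 34.1 CPM untreated and 45.3, 61.2, 61.4, 62.6 and 47.1 CPM treated, a clear gap between the groups, with a log2 fold change of 0.94 ± 0.14 (adjusted p = 0.00111). Setd5, a SET-domain protein linked to intellectual disability, went from 118 ± 13.5 to 165 ± 13.2 CPM without overlap (0.48 ± 0.10, adjusted p = 0.00395). Setd2, the enzyme for trimethylation of histone H3 lysine in transcribed gene bodies, went from 67.4 ± 7.80 to 98.1 ± 20.8 CPM (0.54 ± 0.14, adjusted p = 0.0136). Kmt2e, an MLL-family protein, went from 145 ± 11.0 to 202 ± 38.6 CPM (0.48 ± 0.13, adjusted p = 0.0135). In both Setd2 and Kmt2e, ibudilast replicate 1 lay within the untreated range and ibudilast replicate 3 was highest. The other writers, Setd4, Setd6 and Setd8, gave log2 differences from -0.33 to 0.15 and did not pass; Setd6, at -0.33, passed as lower at -0.47 when ibudilast replicate 1 was left out.

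Among the erasers, 3 of 13 rose (23.1%, against 20.0% of all tested genes) and none fell. Of the 13 differences, 11 were positive, and the median was 0.28. In the fit with the trend over gene span removed, given below, 0 erasers passed as higher, against 18.5% of tested genes. Without the libraries high in cerebellar, meningeal or choroid plexus markers, 0 passed as well, against 15.0%. With the hippocampal score 1 of 13 passed as higher, against 5.28% of tested genes. Without ibudilast replicate 3 alone 4 of 13 did, against 22.0%. Kdm2a, a demethylase bound to CpG islands, measured 87.6, 111, 90.2, 101 and 107 CPM untreated and 124, 129.7, 175, 122 and 133 CPM treated. All treated values lay above the untreated ones, with 175 CPM in ibudilast replicate 3 standing apart, and the difference was 0.46 ± 0.12 (adjusted p = 0.0111; 0.36 without that library). Kdm5a and Kdm5b, demethylases of trimethylated histone H3 lysine at promoters, both had overlapping groups. Kdm5a went from 46.3 ± 1.94 to 62.0 ± 13.8 CPM (0.42 ± 0.13, adjusted p = 0.0291), and Kdm5b from 73.9 ± 9.12 to 89.7 ± 3.46 CPM (0.28 ± 0.09, adjusted p = 0.0326).

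Those last calls lay near the threshold and were lost when any 1 of several libraries was left out. Kdm5a no longer passed without untreated replicate 1, 3 or 4 or ibudilast replicate 2, with a range of 0.29 to 0.50 over all fits that left out 1 library. Kdm5b no longer passed without untreated replicate 1, 2 or 3 or ibudilast replicate 1, 2, 4 or 5, with a range of 0.23 to 0.34. Of the erasers that did not pass, Kdm4a (0.25 ± 0.09, adjusted p = 0.0509), Kdm4d (0.75 ± 0.28, adjusted p = 0.0541) and Kdm4b (0.35 ± 0.13, adjusted p = 0.057), all members of a family acting on methylated histone H3, came nearest. Kdm4a and Kdm4b had no overlap between groups. Kdm4a passed without untreated replicate 5 (or ibudilast replicate 1 or 4) and Kdm4d without untreated replicate 3 or ibudilast replicate 3, within ranges of 0.19 to 0.30 and 0.58 to 0.95. Kdm6b, a demethylase of the Polycomb mark, gave 0.45 ± 0.21 (adjusted p = 0.0999) and passed at 0.59 without untreated replicate 4, and the JmjC protein Kdm8 gave 0.38 and passed at 0.47 without ibudilast replicate 1, but was at -0.03 with the hippocampal score. Kdm1a, the flavin-dependent demethylase, was at 64.3 ± 8.98 and 67.5 ± 5.00 CPM (0.07 ± 0.11, adjusted p = 0.618), and Kdm4c at 25.3 ± 2.24 and 24.6 ± 3.13 CPM.

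The deacetylases were the role group with calls in both directions, with a median of -0.07. Of 9, 3 were higher and 2 lower (33.3% and 22.2%, against 20.0% and 18.5% of all tested genes). The calls were also set out by enzyme class, a grouping added to the roles, and the difference was not tested. Of the class I enzymes Hdac1, Hdac2, Hdac3 and Hdac8, 2 fell and none rose. Of the class II and IV enzymes Hdac4, Hdac5, Hdac9, Hdac10 and Hdac11, 3 rose and none fell. With the hippocampal score as a covariate, 2 class II and IV genes passed as higher and 0 class I genes as lower. In that fit 5.28% of tested genes passed as higher and 4.49% as lower. Hdac4, a class IIa protein that shuttles between nucleus and cytoplasm in neurons, measured 13.0, 13.5, 17.0, 14.9 and 19.0 CPM untreated and 32.4, 38.3, 27.1, 45.9 and 37.3 CPM treated. The groups were far apart, and ibudilast replicate 3 was the lowest treated library. Its mean went from 15.5 ± 2.53 to 36.2 ± 6.99 CPM, a log2 fold change of 1.23 ± 0.16 (adjusted p = 0.000918). Hdac11, the class IV enzyme, measured 159.7, 142, 161, 143 and 159 CPM untreated and 246, 273, 193, 293 and 242 CPM treated. It too was lowest among treated animals in ibudilast replicate 3 and did not overlap (0.71 ± 0.11, adjusted p = 0.00134). Hdac5, the class IIa relative of Hdac4, moved from 136 ± 10.1 to 163 ± 9.05 CPM without overlap (0.26 ± 0.08, adjusted p = 0.0222), and no longer passed without untreated replicate 1 or 4 or ibudilast replicate 2 (range 0.23 to 0.30).

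Hdac2, the class I deacetylase of neuronal corepressor complexes, measured 100.2, 97.0, 94.1, 109 and 99.0 CPM untreated and 81.7, 77.5, 66.7, 78.6 and 77.3 CPM treated. Every treated value was below every untreated value, and the log2 fold change was -0.39 ± 0.08 (adjusted p = 0.00378). Hdac8, a class I enzyme that deacetylates cohesin, measured 19.6, 23.1, 20.0, 25.2 and 20.4 CPM untreated and 13.2, 13.8, 15.3, 12.1 and 14.6 CPM treated, again without overlap (-0.65 ± 0.11, adjusted p = 0.00197). Hdac3, the enzyme of the nuclear receptor corepressor complex, was at 73.6 ± 6.53 and 70.0 ± 5.29 CPM (-0.07 ± 0.09, adjusted p = 0.532). Hdac1, another class I enzyme, was at 41.1 ± 4.62 and 36.4 ± 7.13 CPM (-0.18 ± 0.14, adjusted p = 0.325), and Hdac1l, excluded by the count rule, had 0 to 4.4 expected counts per library. Hdac10, a polyamine deacetylase, and Hdac9, of class IIa, gave -0.15 ± 0.19 (adjusted p = 0.542) and -0.02 ± 0.29 (adjusted p = 0.964); Hdac9 ranged from 8.93 to 31.9 CPM within the untreated group alone.

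**Figure D2:**
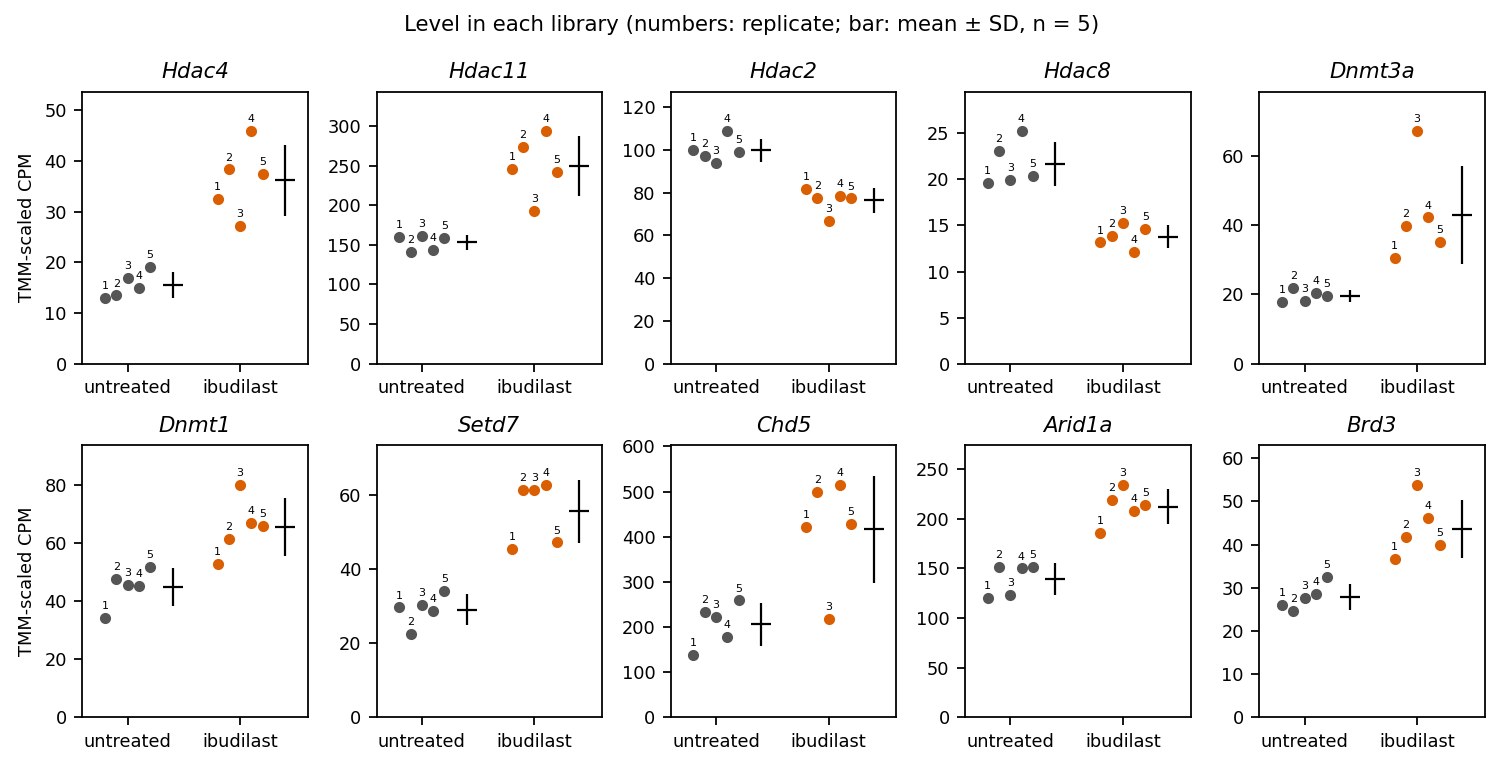
TMM-scaled CPM of selected chromatin genes in each of the 5 untreated and 5 ibudilast libraries, numbered by replicate, with the group mean ± SD (n = 5) beside the points. Hdac4, Dnmt3a and Setd7 are higher in all 5 treated libraries, Hdac2 and Hdac8 are lower in all 5, and Chd5 overlaps through ibudilast replicate 3.

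The stretches of 250 bases upstream of the RefSeq start (GRCr8) are shown for Hdac4 and Dnmt3a, which rose, and for Hdac2 and Hdac8, which fell, which differ in direction and do not overlap between the groups. They lie at chr9:100197638-100197887 (minus strand), chr6:32598352-32598601 (plus), chr20:42102877-42103126 (plus) and chrX:71632866-71633115 (minus), and are printed 5′ to 3′ on the strand of the gene. Capitals mark, on either strand, the cAMP response element TGACGTCA, its shorter core TGACG (contained in the full element), the E-box CACGTG, the GC box GGGCGG, and CCAAT.
Hdac4: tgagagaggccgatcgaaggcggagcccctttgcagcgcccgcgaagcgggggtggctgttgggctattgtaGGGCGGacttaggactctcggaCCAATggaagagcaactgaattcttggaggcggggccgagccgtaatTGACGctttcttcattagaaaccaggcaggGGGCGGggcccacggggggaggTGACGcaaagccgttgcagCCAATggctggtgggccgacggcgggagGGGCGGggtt
Dnmt3a: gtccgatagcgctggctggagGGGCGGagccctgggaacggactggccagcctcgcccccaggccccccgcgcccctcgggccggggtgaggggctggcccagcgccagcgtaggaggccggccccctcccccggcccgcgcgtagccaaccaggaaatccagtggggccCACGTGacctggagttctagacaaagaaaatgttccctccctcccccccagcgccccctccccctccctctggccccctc
Hdac2: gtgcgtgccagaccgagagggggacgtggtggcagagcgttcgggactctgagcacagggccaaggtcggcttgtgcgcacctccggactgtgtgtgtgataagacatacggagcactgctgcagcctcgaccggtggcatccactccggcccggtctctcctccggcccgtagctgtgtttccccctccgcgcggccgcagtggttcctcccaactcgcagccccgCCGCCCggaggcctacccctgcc
Hdac8: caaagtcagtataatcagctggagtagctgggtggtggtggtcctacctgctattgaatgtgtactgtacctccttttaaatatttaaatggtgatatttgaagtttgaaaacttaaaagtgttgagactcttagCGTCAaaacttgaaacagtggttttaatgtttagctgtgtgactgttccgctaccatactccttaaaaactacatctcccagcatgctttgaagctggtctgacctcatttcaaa
The Hdac4 stretch holds 2 short cores, 3 GC boxes, 2 CCAAT boxes and 21 CpG, whereas that of Hdac8 holds 1 short core and 2 CpG. Dnmt3a has 1 E-box, 1 GC box and 18 CpG, and Hdac2 has 1 GC box and 23 CpG. Of the 63 members, 55 matched a RefSeq promoter. The full cAMP element occurred in 1 of them, Brd2 (1.82%, against 1.59% of all 33469 promoters in the table and 3.02% of the 8766 tested genes with a promoter), and the short core in 15 (27.3%, against 18.2% and 28.3%). GC boxes occurred in 37 (67.3%, against 30.5% and 59.1%), CCAAT in 19 (34.5%, against 34.0% and 35.0%) and E-boxes in 4, Dnmt3a, Hdac5, Kdm4b and Kdm4c (7.27%, against 5.59% and 8.09%). By call, the short core occurred in 4 of 20 members called higher (20%), 1 of 2 called lower and 10 of 33 not called (30.3%). GC boxes occurred in 12 (60%), 1 and 24 (72.7%) of them. These shares were not tested. All are matches of letters in a window, with no measurement of binding.

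Of the 18 remodellers, 8 rose (44.4%, against 20.0% of all tested genes) and none fell (against 18.5%), with a median of 0.28. Of 5 Chd genes 4 rose (80%, median 0.51), and of 12 Smarc genes 3 rose (25%, median 0.02), a share near that of all tested genes. Chd5, a neuronal helicase of the NuRD type, measured 138, 234, 222, 178 and 259 CPM untreated and 421, 499, 218, 515 and 428 CPM treated. The groups were separate but for ibudilast replicate 3, which lay inside the untreated range. The log2 fold change was 1.01 ± 0.23 (adjusted p = 0.00678) and 1.18 without that library. Chd2, a chromodomain helicase linked to epilepsy, measured 39.0, 41.5, 42.8, 45.2 and 45.0 CPM untreated and 59.3, 63.6, 98.8, 63.1 and 63.0 CPM treated, so that the same library was here the highest (0.70 ± 0.14, adjusted p = 0.00344; 0.55 without it). Chd8, a helicase linked to autism, went from 117 ± 8.30 to 157 ± 13.6 CPM without overlap (0.42 ± 0.09, adjusted p = 0.00387). Chd6 went from 87.0 ± 8.39 to 124 ± 31.4 CPM (0.51 ± 0.16, adjusted p = 0.0244) and did not pass without untreated replicate 3, within a range of 0.37 to 0.60. Chd1, which binds methylated histone H3, gave 0.36 ± 0.14 (adjusted p = 0.055) and passed without untreated replicate 5 or ibudilast replicate 1 (range 0.26 to 0.46).

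Arid1a, the large DNA-binding subunit of the BAF (mammalian SWI/SNF) complex, measured 120.2, 151, 123, 150.0 and 152 CPM untreated and 186, 219, 234, 208 and 214 CPM treated. The groups were clearly separate (0.61 ± 0.10, adjusted p = 0.00156). Among the core and accessory BAF subunits, Smarcc1 went from 50.3 ± 4.87 to 65.4 ± 8.17 CPM (0.38 ± 0.11, adjusted p = 0.0166) and Smarcd1 from 112 ± 12.9 to 149.7 ± 23.9 CPM (0.41 ± 0.12, adjusted p = 0.0232). Smarcd1 did not pass without untreated replicate 1 or 4 or ibudilast replicate 2 or 4 (range 0.35 to 0.50). Smarcal1, an annealing helicase for stalled replication forks, gave 0.42 ± 0.15 (adjusted p = 0.0405) and passed in 2 of the 10 fits that left out 1 library, those without untreated replicate 4 or 5 (range 0.35 to 0.54).

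The catalytic ATPases of these complexes did not pass. Smarca4 (BRG1) was at 217 ± 21.8 and 241 ± 8.23 CPM (0.15 ± 0.08, adjusted p = 0.184), Smarca2 (BRM) at 212 ± 15.9 and 229.7 ± 17.4 CPM (0.12 ± 0.08, adjusted p = 0.293), and the ISWI ATPases Smarca5 and Smarca1 gave -0.07 ± 0.09 and 0.20 ± 0.28. The core subunit Smarcb1 was at 104 ± 3.40 and 95.8 ± 7.82 CPM (-0.11 ± 0.08, adjusted p = 0.249). Of the remaining Smarc genes, Smarcd3, enriched in the neuronal form of the BAF complex, gave -0.47 ± 0.19 (adjusted p = 0.0649). Smarce1 gave -0.22 ± 0.08 (adjusted p = 0.0558), Smarcad1 -0.27 ± 0.10 (adjusted p = 0.0618) and Smarcd2 -0.25 ± 0.26 (adjusted p = 0.477). Smarcd3 passed as lower without untreated replicate 4 or ibudilast replicate 1 (range -0.59 to -0.35), Smarce1 without ibudilast replicate 1 (-0.29) and Smarcd2 without ibudilast replicate 3 (-0.53), although it was at 0.13 with the neocortical score.

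Among the 13 readers and ARID proteins, 7 rose (53.8%, against 20.0% of all tested genes) and none fell (against 18.5%), with a median of 0.27. Of the 6 Arid3 to Arid5 genes, 3 were among those that rose (50%). Brd3, a BET protein that binds acetylated histones, measured 25.9, 24.7, 27.6, 28.6 and 32.6 CPM untreated and 36.6, 41.7, 53.8, 46.1 and 39.8 CPM treated, without overlap (0.65 ± 0.12, adjusted p = 0.00276). Brd2, also a BET protein, spanned 165 to 196 CPM untreated and 194 to 227 CPM treated and did not pass (0.15 ± 0.08, adjusted p = 0.147). Brd9, a subunit of the non-canonical BAF complex, went from 46.1 ± 2.49 to 55.5 ± 2.85 CPM (0.27 ± 0.07, adjusted p = 0.0153), and Brd7, of the PBAF complex, was at 66.7 ± 3.46 and 64.0 ± 3.08 CPM (-0.06 ± 0.07, adjusted p = 0.524). Brd8, a subunit of the NuA4 acetyltransferase complex, gave 0.28 ± 0.10 (adjusted p = 0.0422) and passed in 3 of the 10 fits without 1 library, those without untreated replicate 4 or 5 or ibudilast replicate 1 (range 0.24 to 0.34).

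Arid5b, a DNA-binding partner of a histone demethylase, measured 8.98, 15.9, 10.3, 17.4 and 22.2 CPM untreated and 24.4, 37.1, 21.1, 33.9 and 33.7 CPM treated. Only ibudilast replicate 3 reached down into the untreated range (1.00 ± 0.25, adjusted p = 0.0101). Arid3a, a DNA-binding protein best known from B cells, measured 1.18, 3.55, 1.64, 3.35 and 3.86 CPM untreated and 4.82, 5.53, 10.9, 6.45 and 4.83 CPM treated (1.25 ± 0.35, adjusted p = 0.0174; 0.99 without ibudilast replicate 3). Arid3b went from 6.43 ± 1.44 to 11.9 ± 2.65 CPM (0.88 ± 0.21, adjusted p = 0.00802). Arid5a, an RNA-binding member, gave -0.38 ± 0.16 (adjusted p = 0.0857) and passed as lower at -0.47 without untreated replicate 4, while Arid4b and Brd1 gave 0.25 and 0.24 and passed at 0.32 and 0.31 without ibudilast replicate 1.

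**Figure D3:**
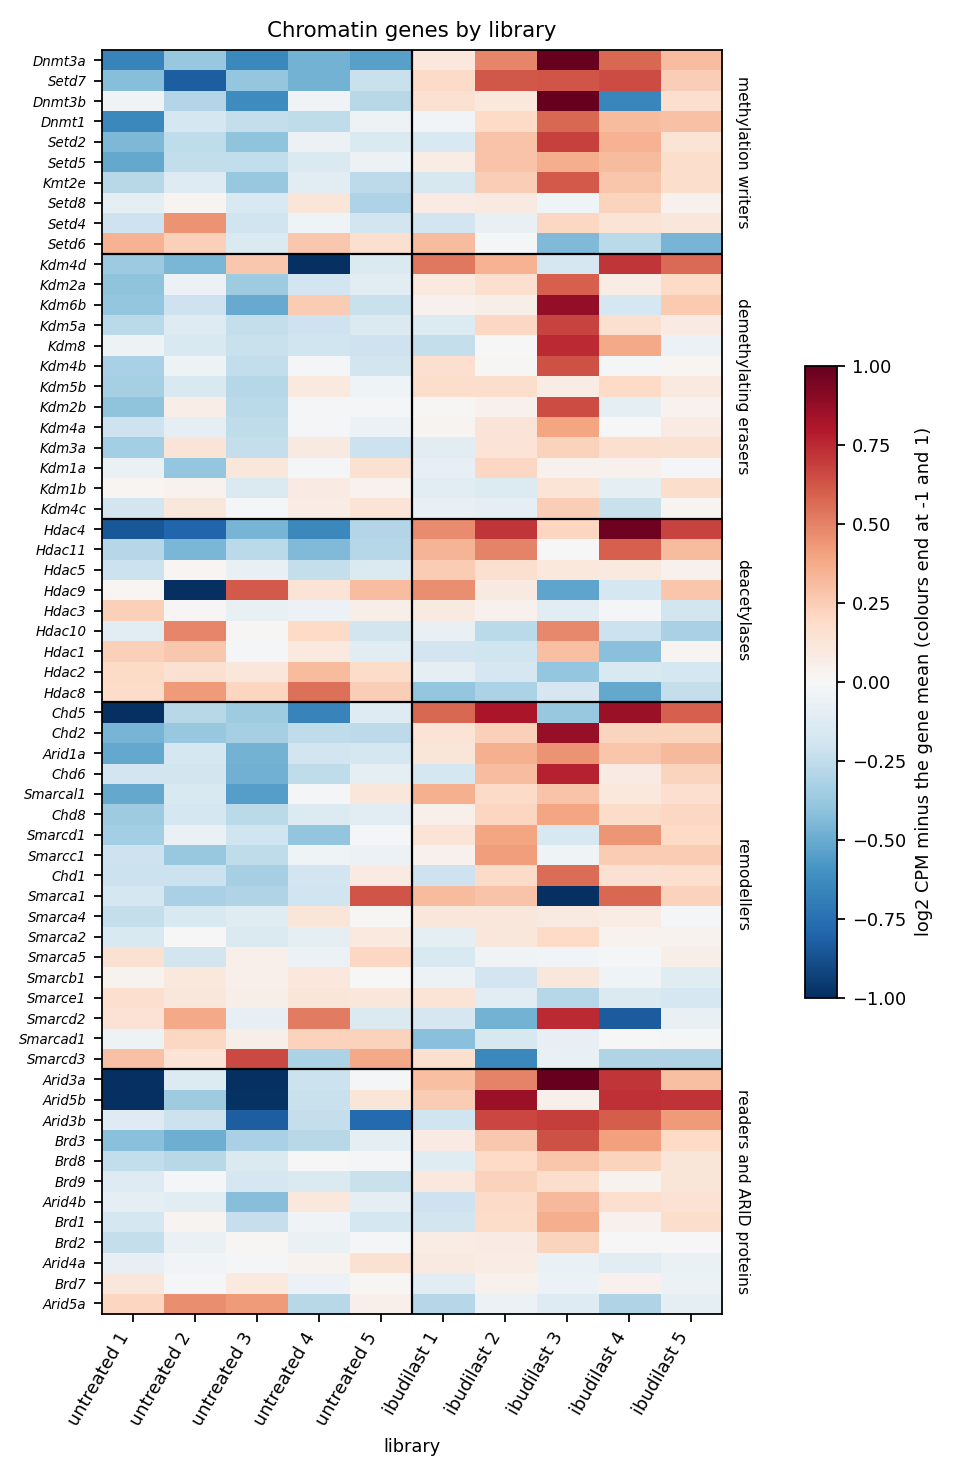
Log2 CPM of 62 of the 63 chromatin genes in each library, centred on the gene's mean over the 10 libraries and ordered by role. Most genes are below their mean in the untreated and above it in the ibudilast columns, ibudilast replicate 3 is the most extreme treated column, and Hdac2 and Hdac8 show the opposite pattern.

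Averaged over the 63 genes, the centred log2 CPM was -0.24, -0.11, -0.20, -0.09 and -0.05 in untreated replicates 1 to 5 and 0.04, 0.15, 0.27, 0.13 and 0.12 in ibudilast replicates 1 to 5. Every treated library was above every untreated one, and the highest was ibudilast replicate 3. That library held the top value for 31 of the 63 members (49.2%, against 21.8% of all tested genes) and for 15 of the 27 that rose (55.6%, against 32.8% of all genes that rose). By role, its excess was largest among writers (0.53 against 0.04 to 0.22 in the other treated libraries) and erasers (0.40 against 0.02 to 0.12). The mean of the deacetylases showed no such excess (-0.01 against 0.02 to 0.10), with members going both ways. Among treated libraries, ibudilast replicate 3 was highest for Hdac1, Hdac8 and Hdac10 and lowest for Hdac2, Hdac4, Hdac9 and Hdac11. Without it, 26 members were higher and 3 lower, with a median of 0.24, beside 22.0% and 18.6% of tested genes. Of the 27, 25 kept their call: Brd8 and Smarcal1 no longer passed, Kdm4d passed as higher, and Smarcd2 joined Hdac2 and Hdac8 as lower. Leaving out ibudilast replicates 3 and 5 and untreated replicate 1 together, the libraries with high cerebellar, meningeal or choroid plexus markers, gave 16 higher, all among the 27, and 3 lower, with a median of 0.20; in that fit 15.0% and 11.6% of tested genes passed. Hdac2 and Hdac8 passed as lower there as well.

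The members are long genes, and gene length went along with the treatment difference. Their median genomic span was 47.8 kb against 24.4 kb for tested genes with a span. From the shortest to the longest decile of tested genes, the median log2 fold change went from -0.31 to 0.38. In decile 9, counted from the shortest,, which holds 15 members, 10 members and 36.5% of genes rose, and in the longest decile 3 of 8 members and 38.1% of genes. In decile 6, 2 of 9 members and 19.0% of genes rose. The median difference of the 8 members in the longest decile, 0.19, was below the 0.38 of that decile. With the trend over span removed, 17 members were higher and 4 lower, with a median of 0.16 beside 0.02 for all tested genes, and 18.5% and 15.5% of tested genes passed. Of those 17, 16 were among the 27, and 40 of the 63 members lay above the median of their own decile. Hdac2 (-0.38) and Hdac8 (-0.95) stayed lower in that fit, and Hdac4 was at 0.90.

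**Figure D4:**
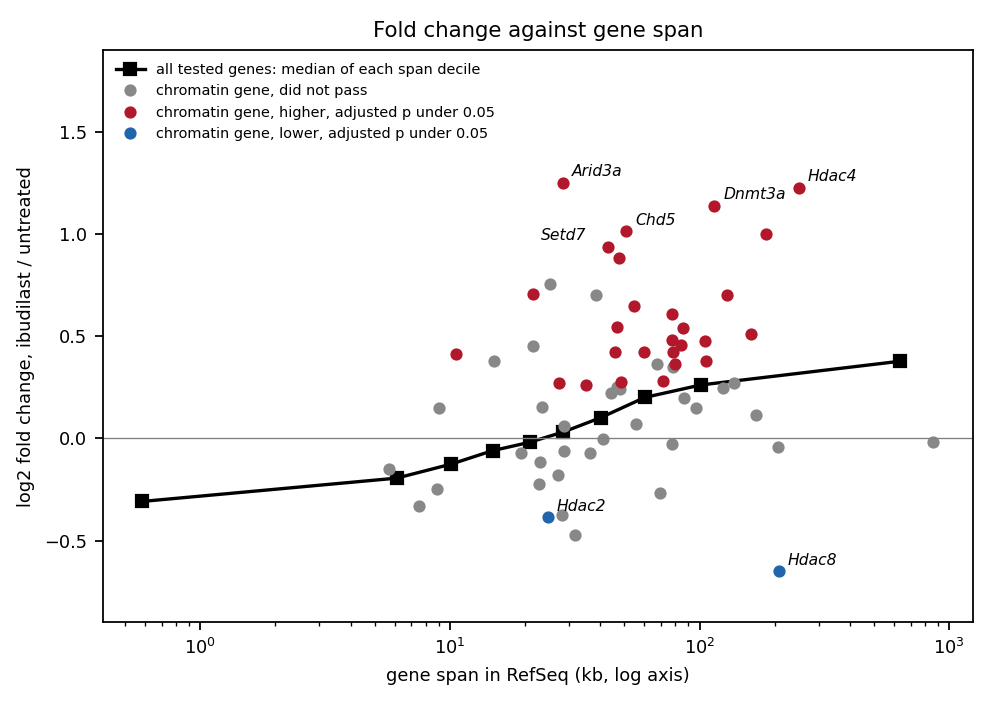
Log2 fold change against genomic span (log axis) for the 63 chromatin genes, over the median of all tested genes in each decile of span. The median climbs from -0.31 in the shortest decile to 0.38 in the longest, and 40 of the 63 genes lie above it.

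Adjusting for the hippocampal principal cell score, which differed between the groups, left 5 members called higher and 0 lower, against 5.28% and 4.49% of tested genes: Arid1a, Hdac4, Hdac11, Setd7 and Kdm5b. The median of the 63 was 0.25 in that edgeR fit, and 22 of the 63 members had an unadjusted p under 0.05 in either direction, against 30.2% of tested genes. Hdac4 gave 1.20, Setd7 0.71, Hdac11 0.66 and Dnmt3a 0.78, while Hdac2 and Hdac8 gave -0.26 and -0.53. In 3 fits, without adjustment, without span trend and without the 3 libraries, 14 of the 63 members were called higher each time. The same held for 1397 of 11662 tested genes. The 14 were Arid1a, Arid3b, Arid5b, Brd3, Chd2, Chd5, Chd8, Dnmt1, Dnmt3a, Hdac4, Hdac11, Setd5, Setd7 and Smarcd1. Of these, 4 also passed with the hippocampal score, namely Arid1a, Hdac4, Hdac11 and Setd7. With 1 library left out at a time, 20 of the 27 kept their call in all 10 fits, as did Hdac2 and Hdac8; the number lower went up to 4 without untreated replicate 4 and to 5 without ibudilast replicate 1.

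**Figure D5:**
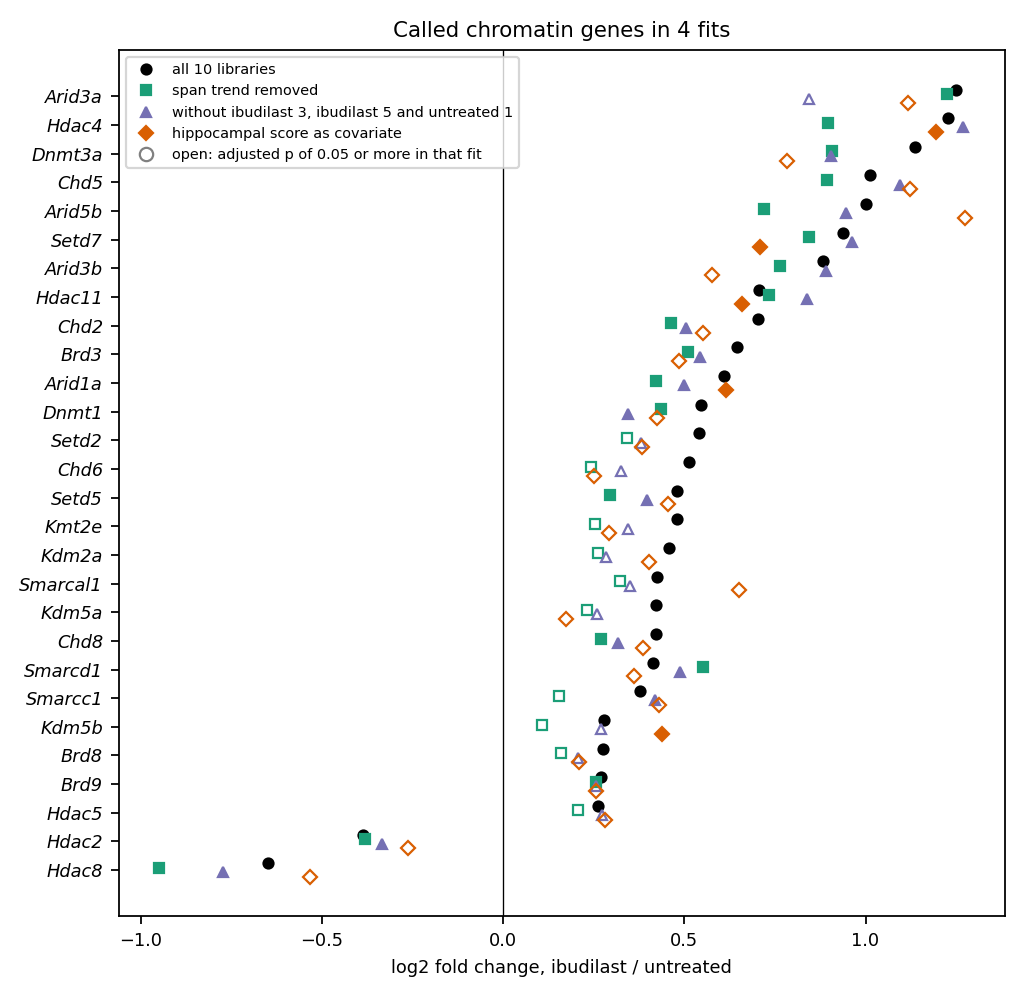
Log2 fold change of 28 of the 29 called chromatin genes in 4 edgeR fits: all libraries, span trend removed, without ibudilast replicates 3 and 5 and untreated replicate 1, and with the hippocampal score as a covariate; open symbols did not pass in that fit. Hdac4, Setd7 and Hdac11 stay well above zero in each, and Hdac2 and Hdac8 stay below it.

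The wider machinery, from lists of genes whose symbols the naming rule does not take, moved in both directions. Of 97 tested genes in 6 lists, 26 rose and 13 fell, with a median of 0.16, to be read against the 20.0% and 18.5% of all tested genes given above. The number lower was between 5 and 8 when untreated replicate 1, 2, 3 or 4 or ibudilast replicate 2, 4 or 5 was left out, and 1 with the hippocampal score. Among acetyltransferases 2 of 7 rose and none fell; Crebbp, the CREB-binding acetyltransferase, went from 85.5 ± 9.85 to 114 ± 20.5 CPM (0.41 ± 0.13, adjusted p = 0.0294). Of 19 other histone methyltransferase genes 8 rose and 2 fell, and Ash1l, a methyltransferase of active genes, gave 0.83 ± 0.13 (adjusted p = 0.0014). Of 24 Polycomb genes 5 rose and 2 fell, while the catalytic subunits Ezh1 (0.21 ± 0.09, adjusted p = 0.0808) and Ezh2 (0.49 ± 0.26, adjusted p = 0.151) did not pass. Of 8 methyl-CpG binding and related genes 3 rose and 2 fell. Of 17 deacetylase partners and sirtuins 3 rose and 3 fell, and Ncor1, the corepressor that holds Hdac3, went from 149 ± 21.2 to 245 ± 19.8 CPM (0.71 ± 0.11, adjusted p = 0.00125). Of 22 other remodeller subunits 5 rose and 4 fell.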

How the data were processed

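RNA was made into strand-specific mRNA libraries, per the labels' protocols. The deposited expected counts per gene (RSEM estimated counts made by the authors) were rounded and tested; bcl2fastq 2.17, Bowtie2 2.1.0, RSEM 1.2.15, edgeR and rn6 appear in the submitters' processing notes. The annotation used and any use of strand in counting were not given in the sources consulted; overlapping genes and close copies are therefore uncertain. The deposited signal table, TMM-scaled CPM made by the authors, entered 1 alternative.

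Differences were tested with edgeR 4.0.16 (R 4.3.3; TMM factors, filterByExpr, quasi-likelihood test, Benjamini-Hochberg over 11682 genes, adjusted p under 0.05). Means are TMM-scaled CPM, and SE is the log2 fold change over the root of F. The scripts were checked on simulated data. Levels are not compared between genes, as no transcript length was used. Gene span came from the GRCr8 RefSeq table (98.1% of tested genes), an approximation for rn6 counts. Promoters came from RefSeq, GRCr8.

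Members, roles, lists and rules were chosen with earlier results of these data known. Named genes were, per role, the 4 largest and 4 smallest called changes with a mean of at least 1 CPM, a written list of genes, and members whose call changed without 1 library. Kdm4b, Smarcad1, Setd4 and Setd8 were added once their values were known. The alternatives used DESeq2 1.42.0, limma 3.58.1 (voom and trend), other scaling and filters, covariates, the replicate block, and libraries left out. Male animals were not analysed here. Some genes that these rules take are counted but not reported by name here.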

Additional observations from a re-analysis of the deposited data

Results flagged for a closer look

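In groups of 5 libraries, a value far from its 4 neighbours relative to the group's range (Dixon's 95% critical value, 0.71) was found in 9 of 126 groups examined; chance gives about 1 in 20. Of these, 7 were high values in ibudilast replicate 3: Arid3a at 10.9 CPM, Chd2 at 98.8, Dnmt3b at 4.39, Hdac10 at 24.1, Kdm2a at 175, Kdm2b at 42.9 and Kdm4b at 153 CPM. Cerebellar markers summed to 4385 CPM in that library; their part in these values was not tested. The others were Setd4 at 16.3 CPM in untreated replicate 2 and Smarca1 at 33.9 CPM in untreated replicate 5.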

How the results depend on the processing

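The 27 higher and 2 lower members became 17 and 4 with the span trend removed, 5 and 0 with the hippocampal score as a covariate, 16 and 3 without ibudilast replicates 3 and 5 and untreated replicate 1, and 31 and 4 with DESeq2. With 1 library left out they ranged from 21 to 30 and from 2 to 5. The replicate numbers did not pair the samples (correlations of same-numbered deviations from -0.11 to 0.03), and with the replicate block 21 and 2 passed. No filter, other filters, RLE factors, no scaling, limma-voom, limma-trend, the neocortical score and the range of the animal tag (chosen after seeing the data) gave 25 to 28 and 2 to 3. These net counts hide changes with the neocortical score, where 44 of 66 log2 fold changes kept direction and side of the threshold. In that fit 7 no longer passed, 10 newly passed and 5 changed sign. Of the other chromatin genes, 26 higher became 11 with the hippocampal score. The 13 lower became 6 without scaling, 1 with the hippocampal score, 6 without the 3 libraries, 9 with the replicate block, and 5 to 13 with 1 library left out. Among the genes named here, log2 fold changes that changed sign belonged to genes that did not pass with all libraries: Hdac1 (0.020 with the neocortical score), Hdac10 (0.074 span removed, 0.082 neocortical score), Hdac3 (0.048 without the 3 libraries), Kdm8 (-0.031 hippocampal score), Setd4 (-0.041 hippocampal score, -0.073 without the 3 libraries), Smarcd2 (0.13 neocortical score), Smarca1 (-0.48 neocortical score), Smarca2 (-0.16) and Smarca4 (-0.063) with span removed, Kdm1a (-0.065 span removed), Kdm4c (0.014 no scaling, 0.062 neocortical score) and Hdac9 (0.032 no scaling, 0.068 voom, 0.048 trend, 0.039 replicate block, 0.26 hippocampal score, 0.047 without the 3 libraries). With 1 library left out, Hdac9 ranged from -0.22 to 0.15, Kdm1a from -0.0071 to 0.15, Kdm4c from -0.11 to 0.014 and Smarca5 from -0.12 to 0.0042. The cause of these changes was not tested. Of 1518 log2 fold changes (66 genes in 23 alternatives), 1345 kept direction and side of the threshold, 103 no longer passed, 42 newly passed and 28 changed sign. Low counts limit Dnmt3b, Arid3a and Kdm4d.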
